A study of Mus musculus with 24 samples.

Results

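The genes described here encode the calcium switch of the muscle thin filament. They are the slow and fast isoform genes of troponin C, troponin I and troponin T, together with cardiac troponin T and the 3 tropomyosin genes with muscle products. The members were taken by name from the deposited table of read counts, *Tnnc1*, *Tnnc2*, *Tnni1*, *Tnni2*, *Tnnt1*, *Tnnt2*, *Tnnt3*, *Tpm1*, *Tpm2* and *Tpm3*, which makes 10 of its 28109 genes. They were followed by RNA-seq in 24 libraries of 2 kinds of mouse myoblast. C2C12 is an established myoblast line from the C3H strain, and PMs are primary myoblasts isolated from C57/B6 mice of 3 to 4 weeks of age. Both were transfected either with a control siRNA against luciferase (siControl) or with siRNA pools that target both *Tead1* and *Tead4* (siTead1/4). No group was left untransfected. RNA was taken at day 0, in growing cells on the day after transfection, and at days 3 and 6 in medium with 2% horse serum, in which myoblasts fuse and differentiate. Each of the 12 groups had 2 biological replicates. The silencing was transient, and the 2 cell types also differed in culture medium and coating, so that cell type, strain and culture cannot be told apart.

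Contraction of striated muscle is switched on when calcium binds troponin C. Troponin I, which otherwise holds the filament off, is then released, and troponin T passes the change on to tropomyosin, the coiled coil that lies along actin. Slow and fast fibres use different genes for these parts. *Tnni1* and *Tnnt1* are the slow troponins I and T, *Tnnc1* encodes the troponin C that slow fibres share with the heart, and *Tnni2*, *Tnnt3* and *Tnnc2* are the fast counterparts. *Tnnt2* is cardiac troponin T, which immature skeletal muscle also makes. *Tpm1* gives the fast and *Tpm3* the slow alpha-tropomyosin, *Tpm2* gives beta-tropomyosin, and all 3 also give forms for other cells, which a count per gene does not separate. Tead1 and Tead4 are transcription factors that bind the MCAT element, and the siRNAs ask which parts of the muscle programme change when both are lowered.

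Of the 10 members, 9 could be measured. *Tnnc1* (ENSMUSG00000091898, mm9 chr14:31983021-32024915, plus strand) had between 0 and 11 reads in every library. In the GENCODE vM1 annotation of mm9, 1041 of its 1051 exon bases, or 99%, lie also in a second *Tnnc1* entry that is not among the rows used here, so these counts cannot stand for the level of the gene and slow troponin C is not described further. *Tnnc2* (ENSMUSG00000017300, chr2:164602661-164605467, minus strand) shares 592 of 800 exon bases, or 74%, with *Ube2c*, a cell cycle gene on the opposite strand, and the libraries do not keep the strand. How shared reads were counted is not given in the sources used here, so the levels of *Tnnc2* are uncertain and its comparison with other genes per length is not made below. *Ube2c* itself was at a mean of 142 CPM (counts per 1e6 reads of the TMM-scaled library size) in siControl C2C12 cells at day 0 and 17.8 CPM at day 3, the opposite course to that of *Tnnc2*.

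The other 8 members overlap no annotated exon of another gene. *Tnni1* (ENSMUSG00000026418, chr1:137679642-137707566, plus strand) lies 29885 bases from *Tnnt2* (ENSMUSG00000026414, chr1:137737452-137748837, plus strand), with *Lad1* between them. *Tnni2* (ENSMUSG00000031097, chr7:149627713-149630315, plus strand) and *Tnnt3* (ENSMUSG00000061723, chr7:149684741-149701914, plus strand) lie 54425 bases apart with *Lsp1* between. *Tnnt1* (ENSMUSG00000064179, chr7:4456172-4467984, minus strand) is 1922 bases from *Tnni3*, the cardiac troponin I gene. The tropomyosin genes share no chromosome with another member. *Tpm1* (ENSMUSG00000032366) is at chr9:66870397-66897213 on the minus strand, *Tpm2* (ENSMUSG00000028464) at chr4:43527583-43536637 on the minus strand and *Tpm3* (ENSMUSG00000027940) at chr3:89876571-89904824 on the plus strand, all in mm9.

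RefSeq promoters of GRCm38.p6, each running from 250 bases before to 50 bases after a start site, were at hand for 8 members at 11 start sites. Those of the 2 members that siTead1/4 lowered past the threshold (*Tnni1* and *Tnnt2*) and of *Tpm1*, whose values lay higher with siTead1/4 at days 3 and 6 in PMs, are printed 5′ to 3′ because they differ in the letters of the MCAT core. Capitals mark CATTCC or its reverse complement GGAATG, the MCAT core, and CANNTG, the E-box that Myod1 and Myog bind.
Tnni1 promoter, chr1:135799171-135799470, plus strand: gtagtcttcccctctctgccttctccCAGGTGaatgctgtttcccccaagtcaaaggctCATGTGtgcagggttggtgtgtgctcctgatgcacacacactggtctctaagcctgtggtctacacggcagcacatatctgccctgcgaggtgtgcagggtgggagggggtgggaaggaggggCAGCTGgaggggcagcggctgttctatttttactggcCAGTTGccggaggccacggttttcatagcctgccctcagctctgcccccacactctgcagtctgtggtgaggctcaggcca
Tnnt2 promoter, chr1:135836084-135836383, plus strand: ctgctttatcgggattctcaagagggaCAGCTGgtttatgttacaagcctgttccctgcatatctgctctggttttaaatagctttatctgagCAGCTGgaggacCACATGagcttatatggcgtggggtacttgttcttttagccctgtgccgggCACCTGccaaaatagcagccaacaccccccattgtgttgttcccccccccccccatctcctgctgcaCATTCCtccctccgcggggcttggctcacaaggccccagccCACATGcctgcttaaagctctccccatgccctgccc
Tpm1 promoter, chr9:67049164-67049463, minus strand: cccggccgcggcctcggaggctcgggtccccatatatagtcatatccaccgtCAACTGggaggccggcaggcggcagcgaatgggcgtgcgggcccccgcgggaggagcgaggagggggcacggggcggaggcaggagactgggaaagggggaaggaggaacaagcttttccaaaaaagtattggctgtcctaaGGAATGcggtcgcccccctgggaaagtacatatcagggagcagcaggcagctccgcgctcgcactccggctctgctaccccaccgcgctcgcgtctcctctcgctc
The *Tnnt2* window held CATTCC with its first base at -27 from the start site, the *Tpm1* window GGAATG at -56 and that of *Tnnc1* GGAATG at -58. Both windows of *Tnni1* held no such letters, and the second window of *Tnnt2* held none either. Thus 3 of the 11 windows had an MCAT core, where 14.7% of the 32851 RefSeq promoters of this length had one. All 11 had at least 1 CANNTG, against 72.3% of promoters, and 5 had the form CAGCTG, against 16.3%. The 2 windows of *Tnni1* overlap and hold the same CAGCTG, at -68 and -158 from their start sites, so the 11 are not all separate. The MEF2 and CArG motifs, searched on both strands, were in none of the 11 windows and in 3.19% and 1.63% of all promoters. These are matches of letters in a short window and no measure of binding.

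The libraries held between 25453830 and 52784510 counted reads, with a median of 39204772. The 10 members together took from 0.163% of the reads in C2C12 cells at day 0 to 2.26% in PMs at day 6. In the siTead1/4 libraries the summed CPM of *Tead1* and *Tead4* was between 7.86% and 59.8% of the mean of the matching siControl pair in C2C12 cells, highest at day 6, and between 23.6% and 46.1% in PMs. All 6 myoblast markers were detected in every group. Markers of macrophages, Schwann cells and endothelium summed to at most 14.2 CPM. Fibroblast markers summed to 552 to 3870 CPM and smooth muscle markers to 802 to 4940 CPM across the groups of both cell types. In siControl PMs the fibroblast sum was 552 to 565 CPM at day 0 and 2800 to 3870 CPM at day 6. Of these 6 markers, 5 were called up between days 3 and 6, where 2.22% of genes were. In siControl C2C12 cells the sum was 839 to 1340 CPM at day 0 and 2560 to 2630 CPM at day 6. The part of these markers in the values of the members was not tested. The 2 siTead1/4 C2C12 libraries of day 3 differed from each other more than any other pair (a chi-square of 314 per gene, against 18 to 160 in the other pairs), and the calls of members and gene lists that rest on them are given with each of them left out.

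In siControl cells the sarcomeric members were switched on between days 0 and 3 in C2C12 cells, where *Tpm3* fell. *Tnni1*, slow troponin I, was at 11.6 and 6.04 CPM at day 0 and at 2434 and 2217 CPM at day 3. Fast troponin I, *Tnni2*, went from 4.05 and 0.995 CPM to 862 and 710 CPM. *Tnnt3*, fast troponin T, went from 7.6 and 1.87 CPM to 1499 and 1496 CPM. In each case both day 3 libraries were far above both day 0 libraries. The log2 fold changes were 8.00 (SE 0.60) for *Tnni1*, 8.27 (SE 0.76) for *Tnni2* and 8.28 (SE 0.71) for *Tnnt3*, with edgeR adjusted p-values of 8.8e-06, 2.8e-05 and 1.9e-05. Slow *Tnnt1* rose by 7.67 (SE 0.71, edgeR adjusted p = 3e-05) and fast *Tnnc2* by 8.63 (SE 0.62, edgeR adjusted p = 7.2e-06). *Tnnc2* had only 0.563 and 0.213 CPM at day 0 and passed the filter on low counts mainly through the later days. *Tnnt2* and *Tpm2* started higher. Cardiac-type *Tnnt2* was at 247 and 186 CPM at day 0 and 1936 and 1958 CPM at day 3, a log2 fold change of 3.13 (SE 0.27, edgeR adjusted p = 2.2e-05). *Tpm2* went from 303 and 283 CPM to 2880 and 2846 CPM, a log2 fold change of 3.25 (SE 0.38, edgeR adjusted p = 0.00014). These 7 were called up, which takes a log2 fold change beyond 1 together with an adjusted p below 0.05, where 16% of the 15303 genes tested were. *Tpm3* was the member that fell, from 342 and 316 CPM to 156 CPM in both libraries, a log2 fold change of -1.11 (SE 0.17, edgeR adjusted p = 0.00063). Here 12.7% of genes were called down. *Tpm1* was at 1028 and 925 CPM and then at 1630 and 1515 CPM, a log2 fold change of 0.65 (SE 0.27) that did not pass (edgeR adjusted p = 0.084).

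PMs had much of this programme running at day 0. *Tnni1* was already at 632 and 595 CPM, *Tnnt1* at 541 and 550 CPM and *Tnnt3* at 727 and 695 CPM. *Tnni2* was lower, at 135 and 117 CPM, and so was *Tnnc2*, at 50.4 and 40.2 CPM. Every one of these libraries exceeded both C2C12 libraries of day 0 by far. Against C2C12 cells the log2 differences were 7.43 (SE 0.56) for *Tnnt1*, 7.26 (SE 0.53) for *Tnnt3*, 6.96 (SE 0.47) for *Tnnc2*, 6.13 (SE 0.45) for *Tnni1* and 5.69 (SE 0.52) for *Tnni2*, with edgeR adjusted p-values between 4.6e-09 and 1.9e-07. *Tpm2* differed less, by 2.1 (SE 0.28, edgeR adjusted p = 1.5e-05). These 6 members were called higher in PMs, as were 16.3% of the 16926 genes tested. *Tpm1* and *Tnnt2* passed the adjusted p at smaller differences of 0.94 (SE 0.21, edgeR adjusted p = 0.0015) and 0.79 (SE 0.23, edgeR adjusted p = 0.01), and *Tpm3* was lower in PMs by a log2 difference of -0.89 (SE 0.13, edgeR adjusted p = 2.8e-05). *Myog*, the myogenin gene that marks myoblasts committed to differentiate, moved with these members at day 0, with 960 to 1040 CPM in siControl PMs and 2.91 to 9.68 CPM in siControl C2C12 cells. Its part in the difference was not tested.

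PMs rose further from this higher start; whether the rise differed from that of C2C12 cells was not tested. Fast *Tnni2* rose most, from 135 and 117 CPM to 1562 and 1402 CPM at day 3, a log2 fold change of 3.50 (SE 0.13, edgeR adjusted p = 5.4e-08). *Tnnc2* rose by 3.33 (SE 0.14, edgeR adjusted p = 8.5e-08) and *Tnnt3* by 2.78 (SE 0.12, edgeR adjusted p = 8e-08). Slow *Tnni1* rose by 2.31 (SE 0.20, edgeR adjusted p = 5e-06), *Tnnt2* by 2.44 (SE 0.20, edgeR adjusted p = 3e-06) and *Tpm2* by 2.16 (SE 0.13, edgeR adjusted p = 3.9e-07). That made 6 members called up, where 17.5% of 16144 genes were. *Tpm3* was called down, as 14.9% of genes were, with a log2 fold change of -1.58 (SE 0.11, edgeR adjusted p = 1.4e-06). *Tpm1* rose by 0.99 (SE 0.12, edgeR adjusted p = 6.1e-05), just under the fold threshold. Slow *Tnnt1*, at 541 and 550 CPM on day 0 and 665 and 648 CPM on day 3, did not pass (edgeR adjusted p = 0.36). It came later, with 1128 and 1784 CPM at day 6, a log2 fold change of 1.14 over day 3 (SE 0.19, edgeR adjusted p = 0.011). *Tnnt1* was the 1 member called between days 3 and 6 in PMs, where 2.22% of genes were called up. Without replicate 2 of siControl PMs at day 6 its log2 fold change was 0.76 (edgeR adjusted p = 0.031) and the call was lost. In C2C12 cells no member and none of the 15303 genes (0%) was called between days 3 and 6, by edgeR or for the members by DESeq2, and 1 member, *Tpm3*, had an unadjusted p under 0.05 (log2 fold change 0.39).

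**Figure D1:**
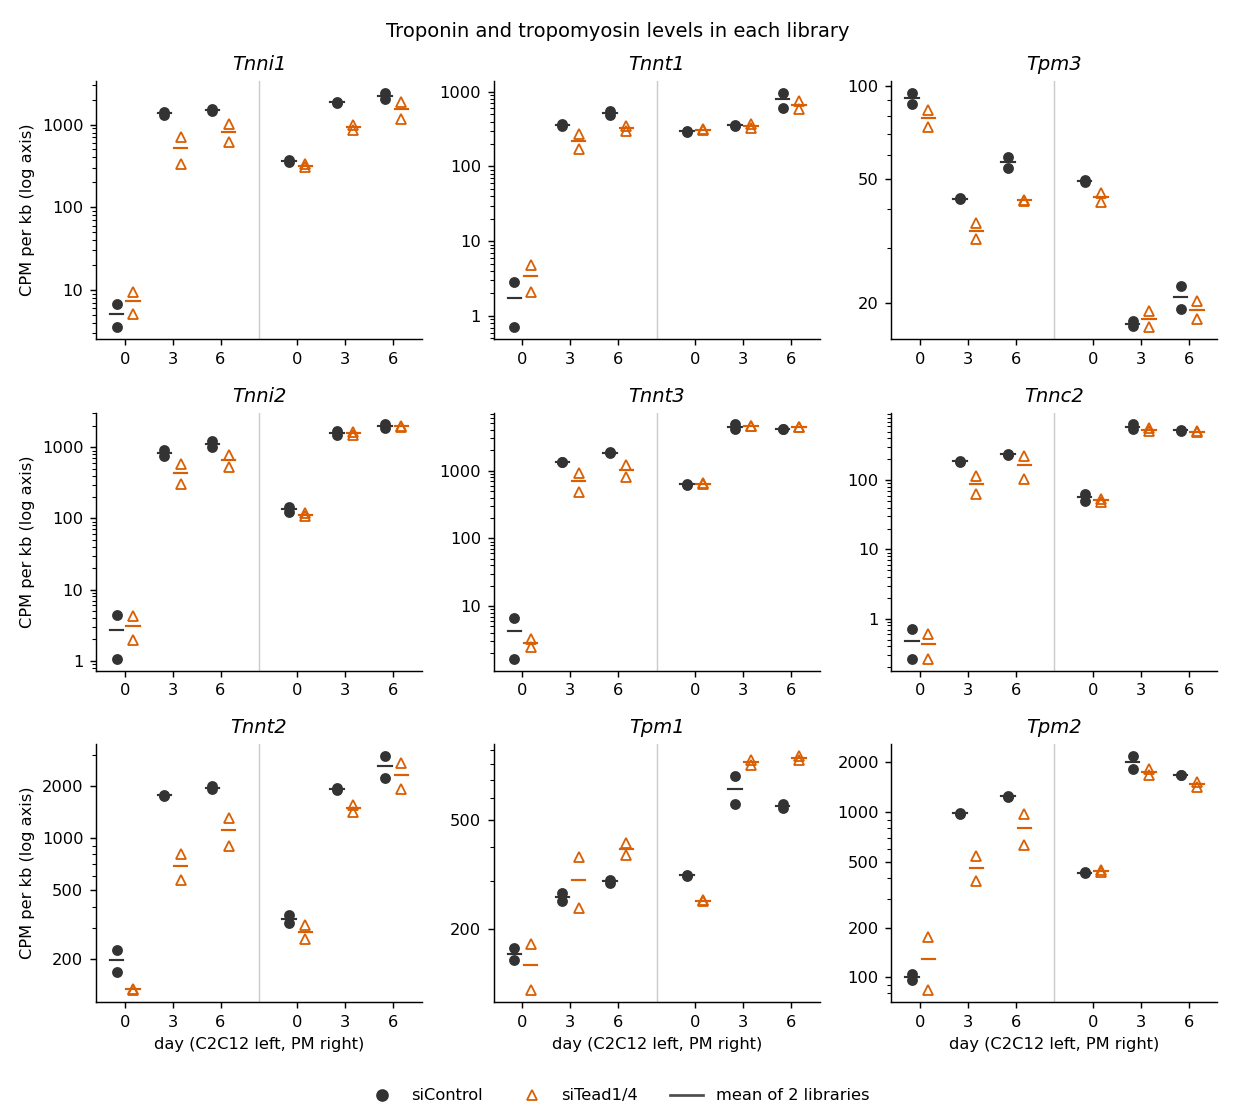
Level of each measured gene in CPM per kb of gene length, on log axes with a separate scale for each gene, by day for C2C12 cells (left of the line) and PMs (right). Filled circles are siControl libraries, open triangles siTead1/4 libraries and bars the mean of 2 libraries. In C2C12 cells *Tnni1*, *Tnni2*, *Tnnt1*, *Tnnt3* and *Tnnc2* are under 10 CPM per kb at day 0 and over 60 at days 3 and 6, *Tpm3* runs the other way, and the level of *Tnnc2* is uncertain because its exons overlap *Ube2c*.

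At days 3 and 6 the order of the genes differed between the cell types. The order within a cell type depends on the gene length used. That of *Tnni1* was 1708 bases, where its longest annotated transcript had 1150, and that of *Tpm1* 5987, where its longest had 2890. For *Tnnt2* these were 1106 and 1097 bases, so that close ranks, such as *Tnnt2* over *Tnni1*, are uncertain. On the scale of CPM per kb, siControl C2C12 cells at day 3 were led by *Tnnt2* (1750 and 1771), followed by *Tnni1* (1425 and 1298) and *Tnnt3* (1335 and 1332), and the last 2 overlapped. Then came *Tpm2* (990 and 978), *Tnni2* (922 and 760), *Tnnt1* (373 and 353) and *Tpm1* (272 and 253), with *Tpm3* last (43.4 and 43.3). In PMs at day 3 fast *Tnnt3* was first by a wide margin (4861 and 4153), ahead of *Tpm2* (2189 and 1813), which overlapped *Tnnt2* (1935 and 1893). Slow *Tnni1* (1883 and 1827) and fast *Tnni2* (1671 and 1500) followed without overlapping, and then *Tpm1* (720 and 571), *Tnnt1* (362 and 352) and *Tpm3* (17.5 and 16.9). Compared directly at day 3, 4 members were called higher in PMs, where 17.2% of genes were. *Tnnt3* was higher by a log2 difference of 1.76 (SE 0.41, edgeR adjusted p = 0.0022), *Tnnc2* by 1.65 (SE 0.33, edgeR adjusted p = 0.00065), *Tpm1* by 1.30 (SE 0.21, edgeR adjusted p = 8.8e-05) and *Tpm2* by 1.02 (SE 0.27, edgeR adjusted p = 0.0057), the last of which was lost without replicate 1 of siControl PMs (0.86, edgeR adjusted p = 0.062). *Tpm3* was lower in PMs by -1.33 (SE 0.13, edgeR adjusted p = 4.7e-07), where 12.6% of genes were called lower. The log2 differences of slow *Tnni1* (0.45), slow *Tnnt1* (-0.02) and *Tnnt2* (0.12) did not pass, and neither did that of fast *Tnni2* (0.92, SE 0.42, edgeR adjusted p = 0.084). At day 6, *Tnnt3* and *Tnnc2* were still called higher in PMs, with log2 differences of 1.15 (SE 0.40, edgeR adjusted p = 0.032) and 1.16 (SE 0.33, edgeR adjusted p = 0.01), where 15.7% of genes were. The call of *Tnnt3* was lost without any 1 of the 4 libraries and that of *Tnnc2* without 3 of them, with edgeR adjusted p-values from 0.051 to 0.13. *Tpm3* was lower by -1.44 (SE 0.13, edgeR adjusted p = 2.4e-07), where 9.22% of genes were. At this day *Tpm1* was higher in PMs by 0.91 (SE 0.21, edgeR adjusted p = 0.0023), under the fold threshold, and the log2 differences of *Tnni2* (0.84, SE 0.42), *Tnnt1* (0.61, SE 0.42) and *Tnni1* (0.57, SE 0.36) had edgeR adjusted p-values of 0.12, 0.27 and 0.23.

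Expressed as a share of its own family per length, which removes a rise common to the whole family, slow troponin I made up less of troponin I at days 3 and 6 than at day 0 in PMs. The size of every share depends on the gene lengths used. In siControl PMs *Tnni1* made up 72% and 73.5% of troponin I at day 0. Its share was 53% and 54.9% on day 3, then 48.8% and 56% on day 6. In siControl C2C12 cells it made up 61.1% and 76.9%, then 60.7% and 63.1%, then 55.8% and 58.9%. In C2C12 cells the day 0 shares spread over the later ones. In troponin T the families of the 2 cell types were composed differently. *Tnnt2* was 95.9% and 98.6% of troponin T in C2C12 cells at day 0, and 50.6% and 51.2% at day 3, when *Tnnt3* was 38.6% in both libraries and *Tnnt1* 10.8% and 10.2%. PMs at day 0 already held 51.3% and 48.5% *Tnnt3*, 25.4% and 28% *Tnnt2* and 23.3% and 23.4% *Tnnt1*. By day 3 *Tnnt3* was at 67.9% and 64.9% of troponin T in PMs and slow *Tnnt1* at 5.05% and 5.5%. Among the tropomyosins, *Tpm3* shrank from 25.6% and 25.8% to 3.32% and 3.4% in C2C12 cells and from 6.26% and 6.18% to 0.597% and 0.705% in PMs between days 0 and 3. *Tpm2* took over, with 75.8% and 76.8% in C2C12 cells and 74.8% and 75.5% in PMs at day 3.

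**Figure D2:**
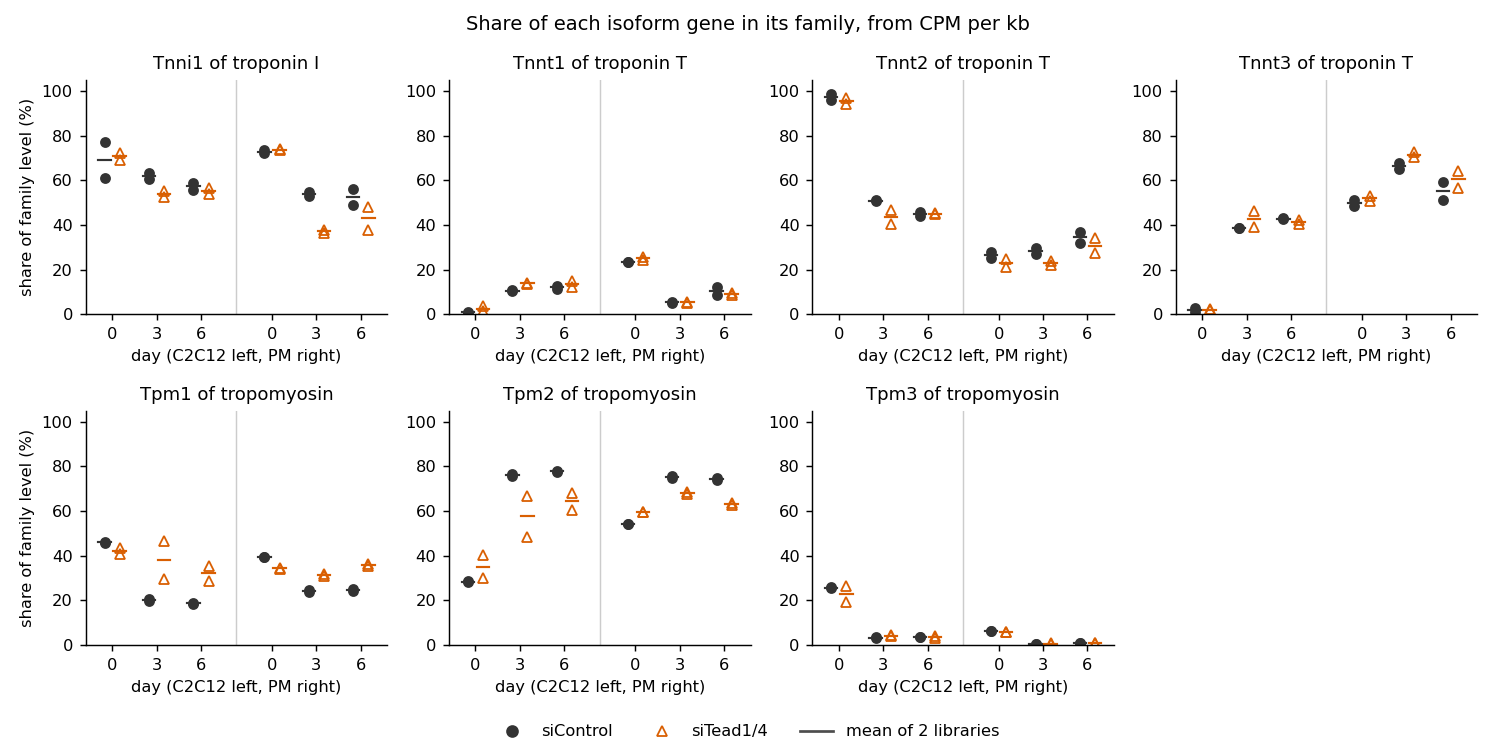
Share of each isoform gene in the summed CPM per kb of its family, in percent, by day for C2C12 cells (left of the line) and PMs (right), with siControl libraries as filled circles, siTead1/4 libraries as open triangles and the mean of 2 libraries as bars. Fast *Tnni2* is the remainder of troponin I. The *Tnni1* share in PMs at day 3 is 53% and 54.9% with siControl and 36.5% and 37.7% with siTead1/4, and the *Tpm1* share at day 6 is 25% and 24.4% against 36.5% and 35.6%.

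In PMs at day 3, slow troponin I fell with siTead1/4 and no change of the fast troponins was detected. *Tnni1* was at 3216 and 3121 CPM in siControl cells and at 1457 and 1701 CPM in siTead1/4 cells. All siTead1/4 libraries were below all siControl libraries. The log2 fold change was -1.01 (SE 0.20, edgeR adjusted p = 0.013), and *Tnni1* was the 1 member called, where 1.2% of the 16144 genes tested were called down. The call rested on a fold change close to the threshold. It was lost without replicate 1 of siControl or without either siTead1/4 replicate (at -0.99, -0.91 and -1.13, with edgeR adjusted p-values of 0.075, 0.093 and 0.05), and in a fit of all 24 libraries (-1.01, adjusted p = 0.19). Fast *Tnni2* was at 1562 and 1402 CPM against 1388 and 1542 CPM, a log2 fold change of -0.03 (SE 0.12). Fast *Tnnt3* was at 5459 and 4663 CPM against 5189 and 5097 CPM, a log2 fold change of 0.02 (SE 0.11). In both genes the groups overlapped. Slow *Tnnt1*, at 665 and 648 CPM against 599 and 674 CPM, overlapped as well (log2 fold change -0.05, SE 0.19). *Tnnt2* was lower without overlap, at 2140 and 2094 CPM against 1555 and 1717 CPM, and did not pass (log2 fold change -0.38, SE 0.19, edgeR adjusted p = 0.27). With the replicate number as a block, *Tnni1* was at -1.02 (SE 0.17, edgeR adjusted p = 0.0033), still close to the fold threshold. *Tnnt2* did not pass in that fit either (-0.39, edgeR adjusted p = 0.081).

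At day 6 *Tnni1* in PMs was at 3430 and 4133 CPM with siControl and at 2003 and 3199 CPM with siTead1/4, a log2 fold change of -0.54 (SE 0.19) that did not pass (edgeR adjusted p = 0.28). *Tpm1* stood out in the other direction. It was at 3414 and 3302 CPM with siControl and at 4955 and 5114 CPM with siTead1/4, a log2 fold change of 0.59 (SE 0.12, edgeR adjusted p = 0.051; with the replicate number as a block, adjusted p = 0.02, still under the fold threshold). The replicates of each group were close together and the groups far apart, while *Tpm2* was lower in the same libraries, at 4899 and 4908 CPM against 4122 and 4442 CPM. The *Tpm1* share of tropomyosin was 24.6% and 23.8% with siControl against 30.9% and 31.8% with siTead1/4 at day 3, and 25% and 24.4% against 36.5% and 35.6% at day 6. At day 0 it was the reverse, with 39.5% in both siControl libraries against 34.6% and 34.2%. *Acta2* and the other smooth muscle markers, which are expressed where *Tpm1* and *Tpm2* have other products, summed to 1860 to 2010 CPM with siControl and 2390 to 2660 CPM with siTead1/4 in PMs at day 6, and their part in the *Tpm1* values was not tested. No member was called in PMs at day 6 or at day 0, by edgeR or DESeq2, where 0.743% and 2.6% of genes were called in either direction. Unadjusted p-values under 0.05 were found for 2 members at day 6 (*Tpm1* and *Tnni1*) and 1 at day 0 (*Tpm1*, log2 fold change -0.31, SE 0.12). The remaining members had log2 fold changes between -0.26 and 0.06 at day 0 and between -0.25 and 0.12 at day 6.

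In C2C12 cells the siTead1/4 values of most members lay lower at day 3, slow and fast alike. *Tnnt2* was at 1936 and 1958 CPM with siControl and at 634 and 890 CPM with siTead1/4. Its log2 fold change of -1.38 (SE 0.26, edgeR adjusted p = 0.034) made it the 1 member called, where 1.08% of the 15303 genes tested were called down. The call was lost without any 1 of the 4 libraries of the comparison, with log2 fold changes from -1.15 to -1.63 and edgeR adjusted p-values from 0.075 to 0.21. *Tnni1* had the lowest log2 fold change, -1.41 (SE 0.45), from 2434 and 2217 CPM to 576 and 1217 CPM, and did not pass (edgeR adjusted p = 0.17). Its siTead1/4 replicates differed from each other by more than the siControl replicates did. *Tpm2* (-1.12, SE 0.36, edgeR adjusted p = 0.17) and *Tnnc2* (-1.11, SE 0.42, edgeR adjusted p = 0.26) showed the same spread. So did the fast pair *Tnnt3* (-0.96, SE 0.52, edgeR adjusted p = 0.46) and *Tnni2* (-0.96, SE 0.55, edgeR adjusted p = 0.49), and slow *Tnnt1* (-0.74, SE 0.53, edgeR adjusted p = 0.61). For all of these, replicate 1 of siTead1/4 was the lower library. It held 24.8% of the siControl mean of *Tnni1* where replicate 2 held 52.3%, and 35.9% against 69% for *Tnnt3*. *Tpm1* went the other way, at 1630 and 1515 CPM against 2199 and 1433 CPM, with overlap. The median log2 fold change of the 9 members was -0.96, beside 0.01 over all genes tested, and since the members share libraries and a differentiation programme these are not 9 separate observations.

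The number of members called at this day depended on the fit. DESeq2 called 3 members, with *Tnni1* (-1.41, adjusted p = 0.028) and *Tpm2* (-1.13, adjusted p = 0.034) beside *Tnnt2*, and so did edgeR on all 24 libraries in 1 fit. Without a filter on low counts edgeR called 4, and in a fit of the 4 libraries alone it called 0. The share of all genes called by these other fits was not taken, so these counts cannot be set beside it. Some other markers lay lower with the members. *Myog* was at 1120 to 1150 CPM with siControl and 491 to 876 CPM with siTead1/4 (-0.77, SE 0.58, edgeR adjusted p = 0.63). The 6 myoblast markers summed to 4950 to 5070 CPM against 2480 to 3760 CPM. None of the 6 was called, and *Myf5* (1.14) and *Pax7* (0.48) lay higher while the others lay lower. The 6 cardiac markers, a list that holds cardiac troponin I, summed to 73.6 to 90.6 CPM against 5.88 to 6.77 CPM, most of it *Myh6*, with *Myl7* at 0 in both groups. Of the 4 cardiac markers tested, *Myh6* was the 1 called (-4.05, SE 0.33, edgeR adjusted p = 0.0019), and *Nkx2-5* was at -0.18. The part of the myoblast and cardiac markers in the change of *Tnnt2* and the other members was not tested. In these bulk samples fewer differentiated cells and less RNA of these genes per cell cannot be told apart.

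At day 6 no member was called in C2C12 cells, by edgeR or DESeq2, where 0.0457% of genes were called in either direction, and 2 members had an unadjusted p under 0.05 (*Tnnt2* and *Tpm3*). *Tnnt2* was at 2112 and 2195 CPM with siControl and 996 and 1444 CPM with siTead1/4, a log2 fold change of -0.81 (SE 0.25, edgeR adjusted p = 0.43). The log2 fold changes of *Tnnt3* (-0.86, SE 0.52), *Tnni1* (-0.86, SE 0.44), *Tnni2* (-0.75, SE 0.55), *Tnnt1* (-0.67, SE 0.52), *Tpm2* (-0.62, SE 0.35) and *Tnnc2* (-0.52, SE 0.42) had edgeR adjusted p-values between 0.79 and 0.91. *Tpm1* lay higher with siTead1/4, at 1769 and 1809 CPM against 2237 and 2461 CPM, without overlap and without passing (0.40, SE 0.27). *Tpm3* lay lower, at 212 and 197 CPM against 154 CPM in both libraries (-0.40, SE 0.17). At day 0, where 0.438% of genes were called, no member was called either, by edgeR or DESeq2, and *Tnnt2* had an unadjusted p of 0.049 (-0.57, SE 0.25, edgeR adjusted p = 0.48), from 247 and 186 CPM to 148 and 145 CPM. The other log2 fold changes over 0.5 at day 0 were of genes under 10 CPM or close to it, namely *Tnnt1* (0.98, SE 0.56, edgeR adjusted p = 0.6), *Tnnt3* (-0.55, SE 0.55, edgeR adjusted p = 0.83) and *Tnni1* (0.50, SE 0.45, edgeR adjusted p = 0.79). For *Tnni1* and *Tnnt3* the sign turned when 1 library was left out.

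**Figure D3:**
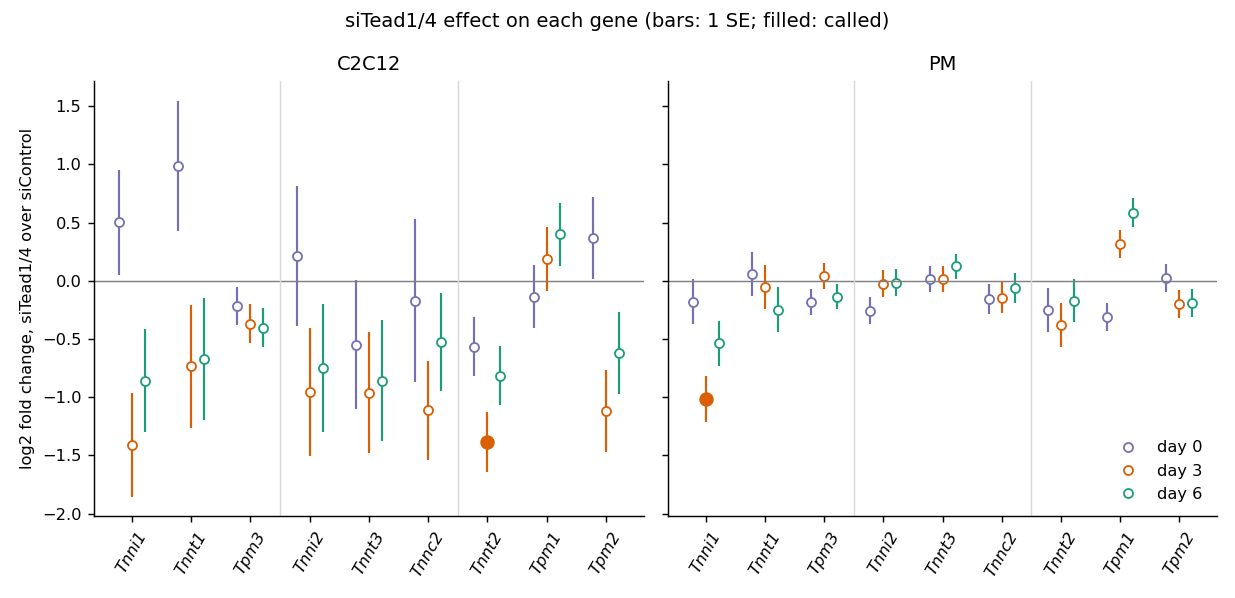
Log2 fold change of siTead1/4 over siControl for each measured gene at days 0, 3 and 6 in C2C12 cells (left) and PMs (right), with bars of 1 SE from the edgeR fit. Filled points passed an adjusted p under 0.05 and a log2 fold change beyond 1, which are *Tnnt2* in C2C12 cells (-1.38) and *Tnni1* in PMs (-1.01), both at day 3, and the SEs in C2C12 cells are wider than those in PMs for every gene shown.

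An interaction term in the 24-library fit asked whether siTead1/4 did more in 1 cell type than in the other. No member was called by edgeR at days 0, 3 or 6, where 0.00591%, 1.25% and 0.0354% of the 16926 genes were. DESeq2 called 1 member at day 3 and 0 at days 0 and 6. Unadjusted p-values under 0.05 were found for 0, 3 and 0 members. At day 3 the effect on *Tnnt2* was less negative in PMs by a log2 difference of 0.98 (SE 0.32, edgeR adjusted p = 0.16), *Tpm2* by 0.90 (SE 0.38, edgeR adjusted p = 0.31) and *Tpm3* by 0.40 (SE 0.18, edgeR adjusted p = 0.35). The *Tnnt2* difference passed with DESeq2 (1.01, adjusted p = 0.043) and without a filter on low counts (1.01, edgeR adjusted p = 0.035). For *Tnni1*, which carried the call in PMs but not in C2C12 cells, the difference was 0.37 (SE 0.51, edgeR adjusted p = 0.85), so the effect on slow troponin I was not shown to differ between the cell types. For the fast members at day 3 the differences were 0.95 for *Tnnt3* (SE 0.56), 0.91 for *Tnni2* (SE 0.59) and 0.95 for *Tnnc2* (SE 0.46), with edgeR adjusted p-values of 0.52, 0.58 and 0.4, and that of slow *Tnnt1* was 0.66 (SE 0.59, adjusted p = 0.73). At day 6 the *Tnnt3* libraries moved in opposite directions, from 2090 and 2065 CPM to 912 and 1371 CPM in C2C12 cells and from 4612 and 4635 CPM to 5012 and 5057 CPM in PMs. This difference of 0.99 (SE 0.56) did not pass (edgeR adjusted p = 1), nor did those of *Tnni2* (0.74, SE 0.59) and *Tnnt2* (0.65, SE 0.32). At day 0 the differences over 0.5 were those of *Tnnt1* (-0.93, SE 0.62), *Tnni1* (-0.67, SE 0.52) and *Tnnt3* (0.56, SE 0.59), all with an edgeR adjusted p of 1.

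The balance of slow against fast isoforms was then measured within each library as the log2 ratio of CPM per kb, a measure that a change common to both genes leaves alone. In PMs at day 3 the *Tnni1*/*Tnni2* ratio was 0.17 and 0.29 with siControl and -0.80 and -0.73 with siTead1/4. The sign turned, from more slow to more fast troponin I on the gene lengths used. Differences of a ratio between groups do not depend on these lengths. At day 6 it was -0.07 and 0.35 against -0.72 and -0.11, closer together but without overlap, and at day 0 it was 1.36 and 1.47 against 1.48 and 1.5. Averaged over the 3 days the ratio was lower by -0.49 with siTead1/4 in PMs and by -0.18 in C2C12 cells. A two-sided exact permutation test that exchanged the siRNA labels within each day gave p = 0.0833 for PMs and p = 0.407 for C2C12 cells (0.153 and 0.454 after Benjamini-Hochberg adjustment over the 6 ratios tested), where the smallest p that the design allows is 0.00926. The C2C12 ratio at day 3 was 0.63 and 0.77 with siControl and 0.16 and 0.29 with siTead1/4, also without overlap.

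For troponin T the direction differed from that of troponin I in C2C12 cells and not in PMs. The *Tnnt1*/*Tnnt3* ratio of C2C12 cells was higher with siTead1/4, by 0.63 over the 3 days (exact permutation p = 0.0185, adjusted p = 0.0833). Most of this came from day 0, with -1.26 and -1.23 against -0.25 and 0.55, when both genes were under 10 CPM. At day 3 it was -1.84 and -1.92 against -1.47 and -1.76. In PMs the mean difference was -0.13 (exact permutation p = 0.454, adjusted p = 0.454), of the same sign as that of troponin I. Counts of *Tpm3* and *Tpm1* include their forms for other cells, so their ratio need not be a balance of slow and fast muscle forms. The *Tpm3*/*Tpm1* ratio was lower with siTead1/4 in both cell types, by -0.46 in C2C12 cells (exact permutation p = 0.0278, adjusted p = 0.0833) and by -0.29 in PMs (exact permutation p = 0.102, adjusted p = 0.153). At day 6 it was -2.33 and -2.47 against -3.13 and -3.26 in C2C12 cells and -4.65 and -4.85 against -5.35 and -5.59 in PMs, without overlap in either. None of the 6 ratios passed after adjustment. A single ratio at the smallest p of 0.00926 could not pass on its own after adjustment over the 6 exact permutation tests. Not passing therefore does not show that a ratio was unchanged.

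**Figure D4:**
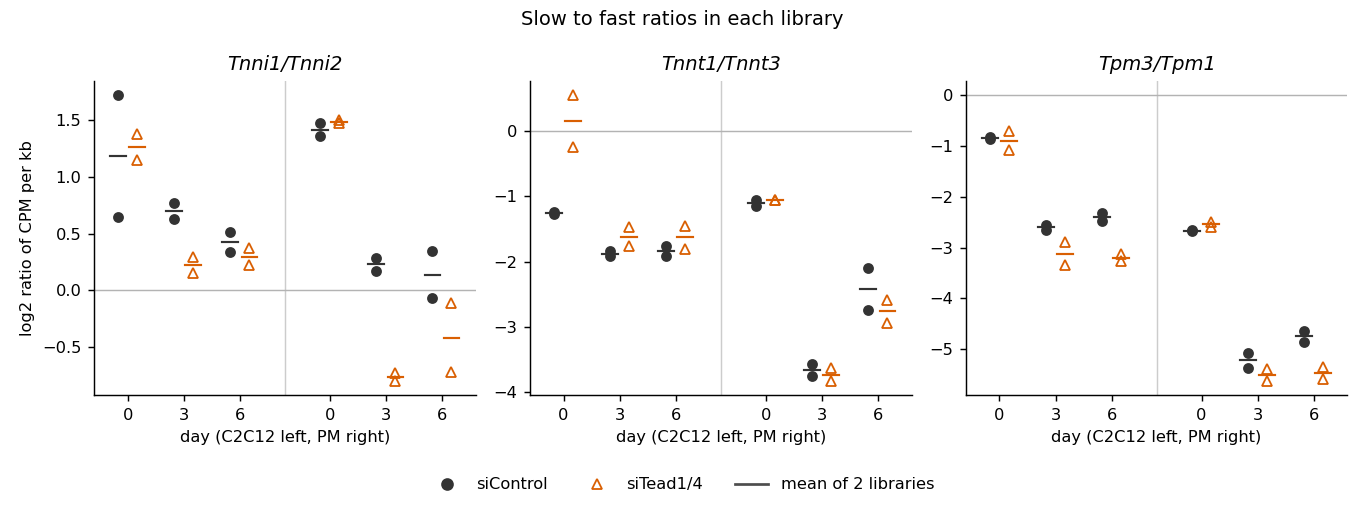
Log2 ratio of slow to fast isoform gene (*Tnni1*/*Tnni2*, *Tnnt1*/*Tnnt3* and *Tpm3*/*Tpm1*) from CPM per kb in each library, by day for C2C12 cells (left of the line) and PMs (right). The counts of *Tpm3* and *Tpm1* include their forms for other cells. Filled circles are siControl, open triangles siTead1/4 and bars the mean of 2 libraries. The clearest gap for troponin I is in PMs at day 3, with 0.17 and 0.29 for siControl against -0.80 and -0.73 for siTead1/4.

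The other genes of the thin filament gave few calls with siTead1/4. Of 20 such genes tested in C2C12 cells at day 3, 2 were called down, where 1.08% of all genes were. These were *Tmod1*, which caps the filament's pointed end (-2.23, SE 0.33, edgeR adjusted p = 0.017), and *Nebl*, the nebulette gene (-1.73, SE 0.35, edgeR adjusted p = 0.046). *Tmod1* kept its call without replicate 1 of siTead1/4 (-2.15, edgeR adjusted p = 0.036) and lost it without replicate 2 (-2.28, edgeR adjusted p = 0.08) or either siControl replicate (edgeR adjusted p = 0.057 and 0.11). *Nebl* lost its call without any one of the 4 libraries (edgeR adjusted p from 0.096 to 0.31). The median of the list was -0.97, near that of the members. Of 21 tested in PMs at day 3, 1 was called down, where 1.2% of genes were. This was *Xirp2* (-2.27, SE 0.50, edgeR adjusted p = 0.023), whose call was lost without any one library (edgeR adjusted p from 0.063 to 0.15), and the list median was -0.12. At day 0, *Kbtbd10* was called up in C2C12 cells (2.33, SE 0.40, edgeR adjusted p = 0.038), where 0.137% of genes were, and remained so only when replicate 1 of siTead1/4 was the library left out. *Tnni3*, cardiac troponin I, was called up in PMs (1.56, SE 0.40, edgeR adjusted p = 0.042), where 1.5% of genes were. It was at 0.466 to 0.62 CPM with siControl and 1.55 to 1.66 CPM with siTead1/4, and the call was lost without any one library (edgeR adjusted p from 0.13 to 0.26).

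Genes of slow fibres outside the thin filament were followed beside the slow troponins. Of 12 on the list, all tested, 8 were called down in C2C12 cells at day 3, where 1.08% of genes were, and 5 in PMs, where 1.2% were. The list medians were -3.14 and -1.26. This list was chosen with earlier results of these data known, so its counts are a description and no independent test. In C2C12 cells the count depended on single libraries. It was 7 without replicate 1 of siTead1/4, 3 without replicate 2, 4 without replicate 1 of siControl and 0 without its replicate 2, while the list median stayed between -3.29 and -2.54. In PMs the count was 2 to 5, lowest without replicate 1 of siTead1/4. *Myh7*, slow myosin heavy chain, was at 333 to 512 CPM with siControl and 26.1 to 26.3 CPM with siTead1/4 in C2C12 cells (-4.04, SE 0.51, edgeR adjusted p = 0.013). Without replicate 2 of siTead1/4 or of siControl its edgeR adjusted p was 0.063 or 0.09. In PMs *Myh7* was at 33.4 to 44.9 against 3.33 to 6.4 CPM (-3.03, SE 0.45, edgeR adjusted p = 0.0036) and stayed called without any one library. *Ankrd2*, a stress-responsive ankyrin repeat gene of slow fibres, had log2 fold changes of -3.55 (SE 0.41, edgeR adjusted p = 0.0093) in C2C12 cells and -3.80 (SE 0.49, edgeR adjusted p = 0.0018) in PMs. It lost its call in 1 case, without replicate 2 of siControl C2C12 cells (-3.77, edgeR adjusted p = 0.051). Other genes of the list moved less than *Tnni1*, among them *Atp2a2*, the calcium pump of slow fibres, at 0.07 in C2C12 cells and -0.58 in PMs, and *Casq2*, at -1.11 and -0.12. *Smtnl2* went opposite ways, at -2.83 in C2C12 cells (edgeR adjusted p = 0.026) and 0.85 in PMs (SE 0.25, edgeR adjusted p = 0.073). At day 0 the slow fibre list had 0 calls in C2C12 cells by edgeR or DESeq2, with 2 genes at an unadjusted p under 0.05, and 4 down in PMs, where 1.1% of genes were called down, and these became 2 to 3 on leaving out 1 library. At day 6 it had 1 call down in C2C12 cells, where 0.0327% of genes were, and 2 in PMs, where 0.279% were. On leaving out 1 library these became 0 to 2 and 0 to 3.

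Of the fast fibre list, 1 of 15 tested was called down in C2C12 cells at day 3, where 1.08% of genes were. The list median was -1.35, and the gene called was *Casq1*, calsequestrin of fast fibres (-2.44, SE 0.44, edgeR adjusted p = 0.033). That call stayed without replicate 1 of siTead1/4 (edgeR adjusted p = 0.049) and was lost without replicate 2 (edgeR adjusted p = 0.14) or either siControl replicate (edgeR adjusted p = 0.12 and 0.21). In C2C12 cells edgeR called 0 genes of the list at day 0 and 0 at day 6, where DESeq2 called 0 and 1, and unadjusted p-values under 0.05 were found for 2 and 3. In PMs at day 3, of 16 tested, *Myh4*, the fastest myosin, was called up (2.02, SE 0.28, edgeR adjusted p = 0.0026), where 2.1% of genes were. Here 2 were called down, where 1.2% of genes were, namely *Myh1* (-2.33, SE 0.21, edgeR adjusted p = 0.00053) and *Myh2* (-1.89, SE 0.32, edgeR adjusted p = 0.0068). *Myh4* and *Myh1* stayed called without any one library, and *Myh2* was lost without replicate 1 of siTead1/4 (edgeR adjusted p = 0.059). At day 0 in PMs the list had 1 gene up (*Myh4*), where 1.5% of genes were, and 2 down (*Myh1* and *Casq1*), where 1.1% were. At day 6 it had 1 up (*Myh4*), where 0.465% of genes were, and 1 down (*Myh2*), where 0.279% were. Some of the day 0 calls, and the day 6 call of *Myh4*, were lost in some of the fits that left out 1 library. Of 22 fibre type regulators tested, *Vgll2*, a cofactor of Tead proteins, was the 1 called in PMs at day 3, where 2.1% of genes were called up. Its log2 fold change was 1.11 (SE 0.19, edgeR adjusted p = 0.007), and the call was lost without replicate 1 of siControl (0.89). In each of the other 5 comparisons of the siRNAs edgeR called 0 of them, with 2 to 6 at an unadjusted p under 0.05, and DESeq2 called 1 in C2C12 cells at day 3 and 0 elsewhere.

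Across the 24 libraries the members fell into few patterns, given here as a description since all points share cell type and day. *Tnnc2*, *Tnni1*, *Tnni2* and *Tnnt3* followed each other most closely, with Pearson correlations of log2 CPM between 0.981 and 0.996. *Tnnt2* followed *Tnnt1* less, at 0.788, and *Tpm3* ran opposite to every other member, from -0.699 with *Tnnt1* to -0.922 with *Tpm1*. Of genes outside the list, those most like *Tnnt3* were *Trim72*, *Smpx* and *Myl1*, at 0.997, 0.996 and 0.996, and those most like *Tnnc2* were the same genes led by *Myl1* at 0.998. For slow *Tnni1* they were *Hfe2*, *Tmem8c* and *Cacnb1* (0.993, 0.99 and 0.989). For *Tnni2* they were *Gprc5c*, *Cacnb1* and *Myl4* (0.995, 0.994 and 0.993). For *Tnnt1* they were *Chrng*, *Myog* and *Synpo2l* (0.987, 0.985 and 0.985), and for *Tpm2* they were *Tmod1*, *Dysf* and *Neurl1a* (0.993, 0.985 and 0.985). The nearest genes of *Tnnt2* (*Fam171a2*, *Prune* and *Gm12352*, from 0.976 to 0.988), of *Tpm1* (*Ache*, *Gdf6* and *Clpx*, from 0.957 to 0.964) and of *Tpm3* (*Clic1*, *Cnpy4* and *Tuba1c*, from 0.954 to 0.975) included no other member among the nearest 20. Those of *Tpm2* included none either.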

How the data were processed

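The 24 RNA-seq libraries were made from polyadenylated RNA and are unstranded. Per the submitters' processing notes and the study's methods, the authors mapped reads to mm9 with TopHat2 2.0.10 and Bowtie2 2.1.0 and counted them with HTSeq 0.6.1. The counting mode and annotation release are not given in the sources used here. The deposited table holds raw counts per gene, which were used. Its 48 columns normalized by the authors and its 36 columns of 12 further, unlisted libraries were not used.

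The members, gene lists, tests and alternatives were chosen with earlier results of these data known. The analysis used R 4.3.3 and edgeR 4.0.16 (filterByExpr, TMM, glmQLFit and glmQLFTest), in 1 fit per cell type for siRNA and day, and in 1 fit of all 24 libraries for cell types and interactions. P-values were adjusted by the Benjamini-Hochberg method over all genes tested (15303 in C2C12 cells, 16144 in PMs and 16926 in both). Calls required an adjusted p below 0.05 together with a log2 fold change beyond 1 in either direction. Standard errors are the log2 fold change over the root of F. A member's fold change is given where it was called or over 0.5, and further ones by range or where a comparison needed them. Levels are CPM on TMM library sizes, divided by the gene length of the table for CPM per kb. Ratios had 0.5 added to each count and were tested by exact permutation over 216 assignments of labels within days. The troponin C ratio planned was not computed because *Tnnc1* could not be measured. The fits and ratios were tested on simulated data. In PMs, deviations of same-numbered siControl and siTead1/4 libraries from their group means correlated at 0.377, 0.409 and 0.503 at days 0, 3 and 6. From these values the replicate numbers were taken to pair the PM libraries. Unless a block or pairs are named, the p-values are from fits and tests without the pairing. The fit with the replicate number as a block is given where it moves a p-value across the threshold. It is also given for *Tnni1* and *Tnnt2* in PMs at day 3. Alternatives were DESeq2 1.42.0, its size factors, no filter, a replicate block, other sets of libraries and leaving out each library. The shares of all genes called are those of the main edgeR fit. They were not taken for the alternatives or for unadjusted p-values. With 2 replicates per group the p-values measure the spread between these samples only.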

Additional observations from a re-analysis of the deposited data

How the results depend on the processing

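Of the values that answer a comparison, 202 were labelled the same under the alternatives and 22 were labelled moved. The first label allowed small changes of a count or ratio, so it does not show that every call was kept. The causes of the moves were not tested. In C2C12 cells at day 3 the 1 member called became 3 with DESeq2 and in a fit of all 24 libraries, 4 without a filter on low counts and 0 in a fit of only its own libraries, and leaving out 1 library gave 0 to 0. In PMs at day 3 the 1 call became 0 in the fit of all 24 libraries, and leaving out 1 library gave 0 to 1. For siControl PMs at day 6 against day 3 the 1 call became 0 in the fit of all 24 libraries and in that of only its own libraries, and leaving out 1 library gave 0 to 1. For siControl PMs against C2C12 cells at day 6 the 3 calls became 1 to 3 on leaving out 1 library. The interaction at day 3, with 0 calls, gave 1 with DESeq2 and 1 without a filter. Among single members, 717 values kept their call and direction, 12 gained and 22 lost a call and 3 turned sign. These were *Tnni1* in C2C12 cells at day 0 (-0.033 without siTead1/4 replicate 2, with a range on leaving out 1 library up to 1.05), and *Tnnt3* at day 0 in C2C12 cells (0.778, with a range from -1.25) and in the interaction (-0.746, with a range up to 1.289), both without siControl replicate 1 of C2C12 cells. DESeq2 size factors moved the median of all genes by at most 0.034 on the log2 scale.

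In C2C12 cells the deviations of same-numbered siControl and siTead1/4 libraries from their group means correlated at -0.13, 0.09 and 0.468 at days 0, 3 and 6, and the numbers were not taken to pair these libraries. In PMs they were. The replicate block left 1 member called at day 3 in each cell type and changed no count of members called. With labels exchanged within pairs the adjusted exact permutation p of the ratios was 0.188 to 0.469. With only 64 such assignments a single ratio could not pass on its own there either. Where a group was left with 1 library, that library is assumed to vary like the other groups. The counts behind *Tnni1*, *Tnni2*, *Tnnt1*, *Tnnt3* and *Tnnc2* in C2C12 cells at day 0 are low and limit what can be said there. The gene lists were also run without each library, an alternative chosen after seeing the data.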
